A study of Mus musculus with 12 samples.

Results

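Genes of the p53 network were followed through germ cells grown in culture and germ cells taken from mouse embryos: Trp53, which encodes p53, its inhibitors Mdm2 and Mdm4, and 7 genes that p53 is known to switch on, Cdkn1a, Ccng1, Trp53inp1, Phlda3, Sesn1, Zmat3 and Ei24. They were chosen by name, 10 of the 26218 gene rows of the table, and all 10 passed the filter on low values (at least 5 RPM in at least 2 of the 12 libraries, where RPM is a gene's reads scaled to a fixed total for each library), as did 10856 genes in all. RNA was profiled by sequencing of transcript 3′ ends in 12 libraries, 2 in each of 6 groups. Of these groups 3 are primordial germ cell-like cells (PGCLCs), which are induced with BMP4, LIF, SCF and EGF from epiblast-like cells that in turn come from embryonic stem cells. They came from C57BL/6 cells with the Blimp1-mVenus and Stella-ECFP reporters (BVSC), were sorted on induction day 4 by the Blimp1-mVenus signal, were placed on m220 feeder cells resistant to mitomycin C, and were sorted again on culture day 3, 5 or 7 (d4c3, d4c5 and d4c7). Embryonic primordial germ cells (PGCs) of embryonic day 9.5 (E9.5) and male (M) and female (F) germ cells of E12.5 form the remaining groups. Those embryos were a 1:1 mix of ICR and C57BL/6 with the Stella-EGFP reporter, and their cells were sorted by that reporter. Every PGCLC library was amplified from 10 ng of RNA and every embryonic library from 1 ng. A comparison of culture with embryo therefore cannot be told apart from strain, reporter, sort or RNA input.

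How many cell lines, cultures or embryos stand behind each library is not given in the sources used here, so the p-values reflect only how far these libraries lie apart, which may be technical. Depth, estimated from the smallest step of each library's values, was 2219175 to 5817990 reads in genes. At that depth the values of the 10 genes rest on about 9 reads (Phlda3 at E9.5, also the lowest level) to about 1416 reads (Mdm4 in d4c7 replicate 2, the deepest library). All 9 germ cell markers examined were detected in every group, with summed levels of 2507 to 3210 RPM in culture, 3508 to 3535 RPM at E9.5 and 5901 to 7599 RPM at E12.5. Much of each sum was Dppa3, at 1310 to 1684 RPM in culture, 2013 and 2089 RPM at E9.5 and 2864 to 4846 RPM at E12.5. In d4c7 against E9.5, 3 of the 9 were higher and 3 lower (limma, adjusted p under 0.05), beside 18.1% and 13.8% of all genes. The sum thus does not stand for each marker. Blood markers summed to 4044 and 4577 RPM at E9.5, to 11.9 to 18.4 RPM at E12.5 and to no more than 1.81 RPM in culture. The 6 fibroblast and feeder markers summed to 108 and 113 RPM at E9.5, to 1.52 to 4.69 RPM at E12.5 and to 4.18 to 88.4 RPM in culture, where the highest sum was in d4c5 replicate 1. The part of these other cells in the results was not tested. In bulk libraries such as these, fewer cells of a type and less RNA per cell cannot be told apart.

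p53 is a transcription factor that is stabilised by DNA damage and other stress, and it limits division and survival of damaged cells. Mdm2 is both its target and the ubiquitin ligase that degrades it, which closes a negative feedback loop, and the related protein Mdm4 binds p53 and blocks its activity. Among its targets, Cdkn1a encodes p21, an inhibitor of cyclin-dependent kinases that holds cells at checkpoints, and others act on survival signalling, redox balance and cell death. In the mouse germ line, p53 is known to restrain the formation of germ cell tumours.

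p53 binds DNA as a tetramer at paired half-sites of 10 bases. The 300-base promoter windows of RefSeq (build GRCm38.p6, from 250 bases before to 50 after an annotated start) were searched for exact matches to the p53 half-site consensus, which is its own reverse complement, so that both strands were read, and no other motif was searched. Of the 10 genes 8 had a window, 11 windows in all, and 6 of the 8 (75.0%) held at least 1 match, compared with 9.55% of the 27025 genes that had a window. These 6 were Trp53, Mdm2, Cdkn1a, Ccng1, Sesn1 and Ei24. Mdm4 and Phlda3 had no match in any window, and Trp53inp1 and Zmat3 had no window. Cdkn1a and Sesn1 each also had a window with no match. Counted by window, 6 of the 11 (54.5%) held a match, compared with 8.36% of all 32851 windows. Windows of 3 genes are printed because these genes stand for the feedback (Mdm2) and checkpoint (Cdkn1a, Ccng1) branches of the response. Each reads 5′ to 3′ along the gene's own strand, in lower case with the half-site matches in capitals.
Mdm2 promoter: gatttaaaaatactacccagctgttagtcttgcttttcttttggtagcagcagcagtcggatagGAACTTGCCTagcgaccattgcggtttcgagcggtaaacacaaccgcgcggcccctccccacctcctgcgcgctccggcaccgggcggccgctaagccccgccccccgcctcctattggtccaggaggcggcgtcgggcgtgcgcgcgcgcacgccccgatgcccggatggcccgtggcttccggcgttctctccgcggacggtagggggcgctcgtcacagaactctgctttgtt
Cdkn1a promoter: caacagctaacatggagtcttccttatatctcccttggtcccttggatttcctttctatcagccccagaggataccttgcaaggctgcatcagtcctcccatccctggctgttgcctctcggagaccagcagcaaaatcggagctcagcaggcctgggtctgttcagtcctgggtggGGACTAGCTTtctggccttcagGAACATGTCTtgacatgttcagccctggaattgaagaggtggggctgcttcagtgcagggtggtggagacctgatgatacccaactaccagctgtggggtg
Ccng1 promoter: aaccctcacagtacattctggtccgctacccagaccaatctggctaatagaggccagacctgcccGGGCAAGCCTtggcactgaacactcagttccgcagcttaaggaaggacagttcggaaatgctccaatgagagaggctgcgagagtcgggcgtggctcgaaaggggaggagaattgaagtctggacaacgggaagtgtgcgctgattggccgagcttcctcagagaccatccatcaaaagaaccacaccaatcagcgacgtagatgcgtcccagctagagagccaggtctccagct
The Mdm2 window is chr10:117710709-117711008 on the minus strand, and its match GAACTTGCCT begins 186 bases before the start. For Cdkn1a the window is chr17:29090729-29091028 on the plus strand, before the more upstream of its 2 annotated starts, and it holds 2 matches, GGACTAGCTT at 73 bases and GAACATGTCT at 51 bases before the start. Ccng1 has its window at chr11:40755237-40755536 on the minus strand, with GGGCAAGCCT 185 bases before the start. A match describes letters only, and no binding was measured here. Sites outside the windows, such as those within introns, were not searched. No match printed here is therefore taken as the site through which p53 acts on its gene.

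Positions are given on GRCm38.p6, counted from 1. Trp53 (NCBI gene 22059) lies on chromosome 11 at 69580348 to 69591873 on the plus strand, Mdm2 (17246) on chromosome 10 at 117688875 to 117710758 on the minus strand and Mdm4 (17248) on chromosome 1 at 132986105 to 133030587 on the minus strand. Cdkn1a (12575) occupies chromosome 17 at 29090979 to 29100722 on the plus strand and Ccng1 (12450) chromosome 11 at 40748552 to 40755309 on the minus strand. Trp53inp1 (60599) is on chromosome 4 at 11156441 to 11174379 on the plus strand and Phlda3 (27280) on chromosome 1 at 135766085 to 135769134 on the plus strand. Sesn1 (140742) spans chromosome 10 at 41810574 to 41908436 on the plus strand, Zmat3 (22401) chromosome 3 at 32334792 to 32365665 on the minus strand and Ei24 (13663) chromosome 9 at 36779153 to 36797334 on the minus strand. Trp53 and Mdm4 each have a processed pseudogene (Trp53-ps and Mdm4-ps) without a row of its own, so reads from gene and copy may not be separated. The last 500 bases of Ei24 overlap the antisense gene Gm26787, and whether counting used strand is not given in the sources used here, so Ei24 values are uncertain in that respect.

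**Figure D1:**
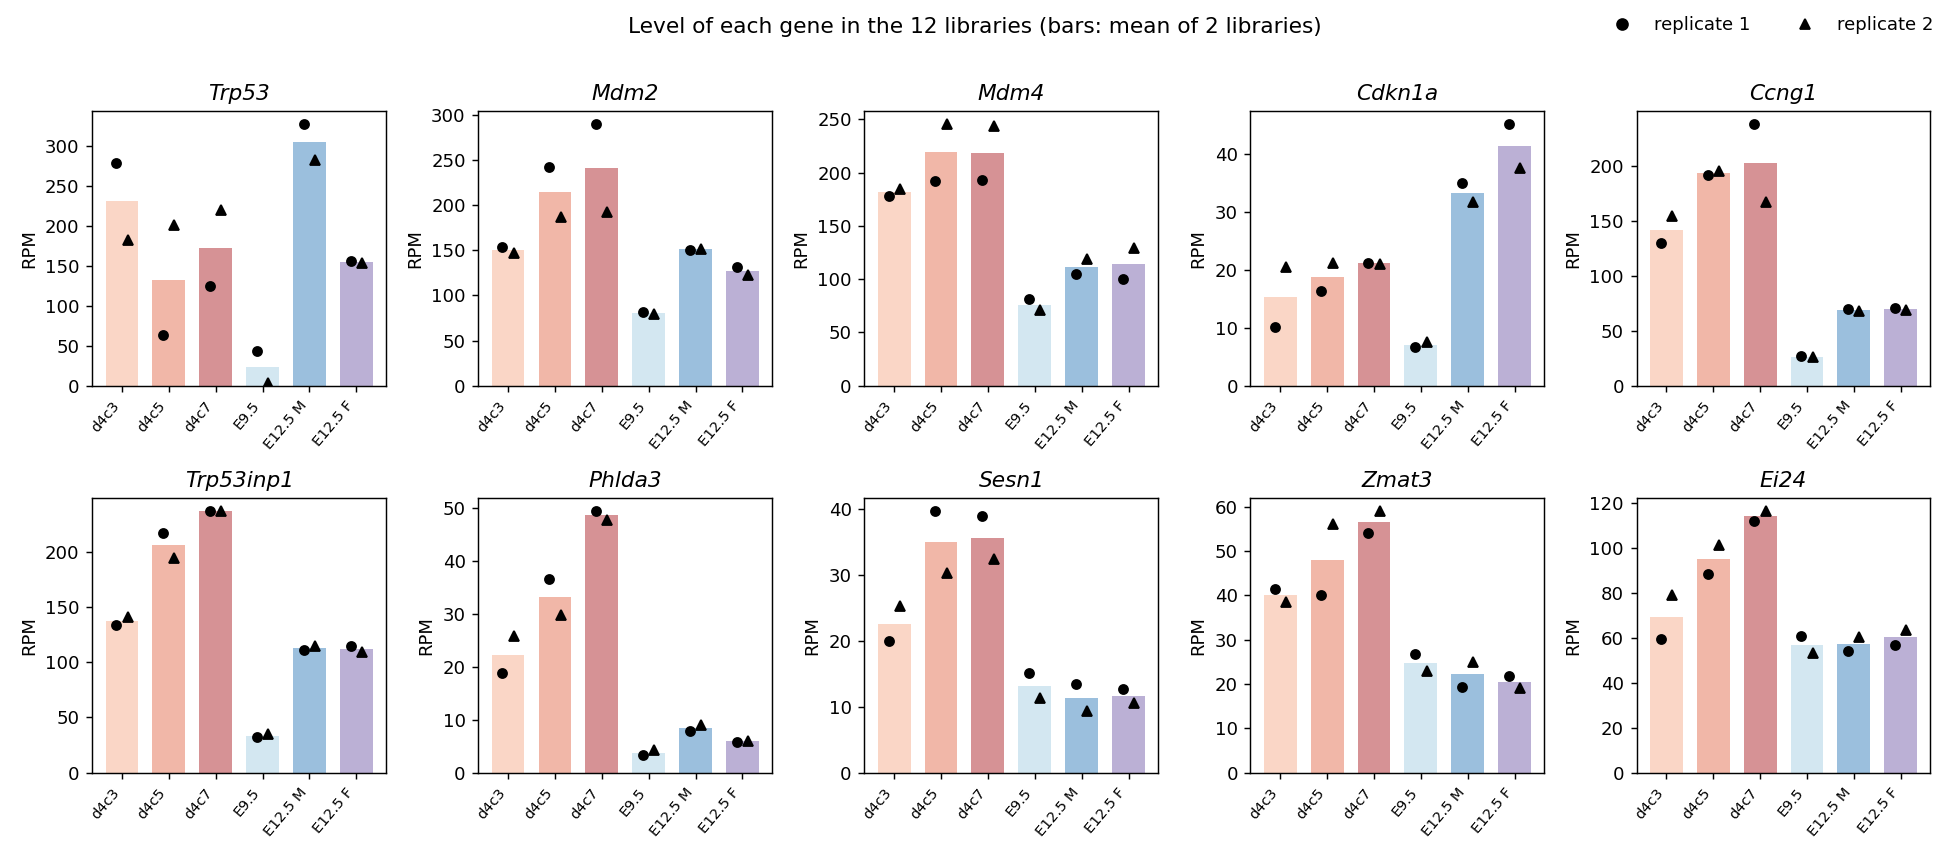
RPM (vertical axis, linear, from 0) of each of the 10 genes in the 6 groups (horizontal axis), with bars for the mean of 2 libraries and circles and triangles for replicates 1 and 2. E9.5 has the lowest mean for 8 of the genes, with Sesn1 and Zmat3 lowest at E12.5, and Cdkn1a alone has its highest means in both E12.5 groups.

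Trp53 itself was lowest at E9.5 and varied most between replicates. In culture it stood at 279 and 183 RPM in d4c3, 63.9 and 201 RPM in d4c5, and 125 and 221 RPM in d4c7 (replicates 1 and 2 in that order throughout). In the embryo it stood at 43.4 and 3.54 RPM at E9.5, 328 and 283 RPM in E12.5 males and 156 and 154 RPM in E12.5 females. Both E9.5 libraries lay below the 10 others, and the culture groups overlapped one another. The order of the means was E12.5 M (305 ± 32.2 RPM), d4c3 (231 ± 67.7), d4c7 (173 ± 67.5), E12.5 F (155 ± 1.80), d4c5 (133 ± 97.3) and E9.5 (23.5 ± 28.2), each mean with its SD over 2 libraries. Neighbours from d4c3 to d4c5 in that order overlapped.

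The gap between the E9.5 replicates of Trp53 was the largest of any tested gene. Its log2 ratio of (RPM + 1), replicate 1 over replicate 2, was 3.29, and of the 10856 genes this 1 gene alone reached that distance, where the root mean square over genes in E9.5 was 0.33. In d4c5 its ratio was -1.64, a distance that 91 genes (0.838%) reached. That d4c5 pair also differed in the summed fibroblast and feeder markers (88.4 RPM in replicate 1 and 4.18 RPM in replicate 2), whose part was not tested. In E12.5 males and females the ratios were 0.21 and 0.02. The other 9 genes ranged from -0.94 (Cdkn1a in d4c3) to 0.59 (Mdm2 in d4c7) over all 6 groups. For Trp53 the standard error (SE) of a log2 change was 0.73 in every pairwise comparison, since the model pools the spread over groups, and for the other genes it was 0.11 to 0.28. With the E9.5 libraries of Trp53 3.29 apart, this pooled SE is likely to understate its spread in comparisons that use E9.5. The SE and adjusted p of Trp53 there are uncertain for that reason.

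**Figure D2:**
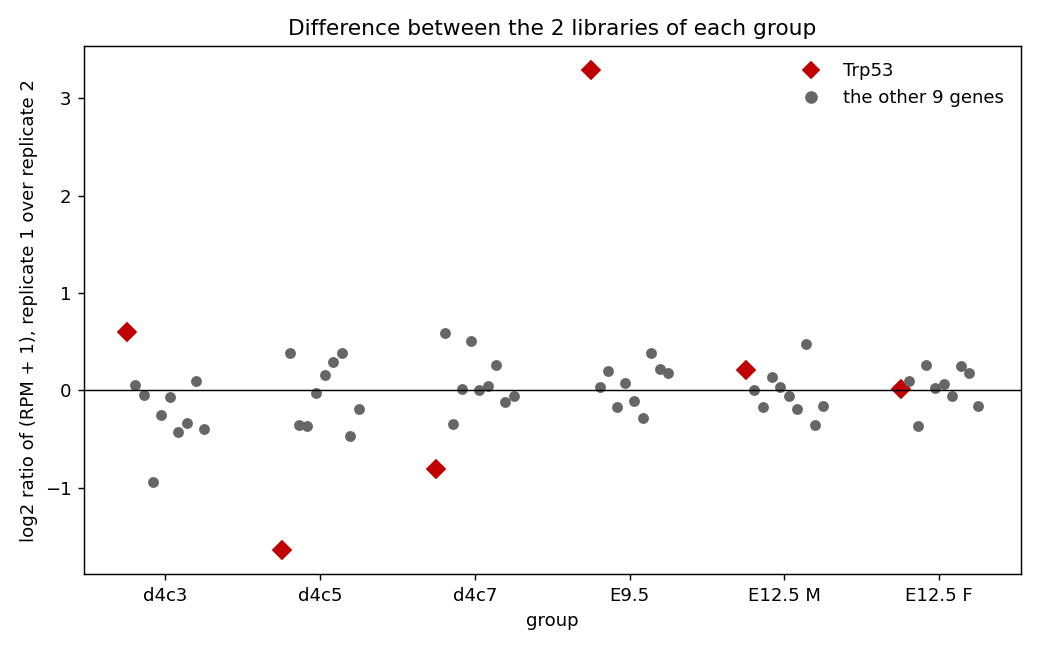
Log2 ratio of (RPM + 1) of replicate 1 over replicate 2 (vertical axis) in each group (horizontal axis), for Trp53 (diamonds) and the other 9 genes (circles). Trp53 stands at 3.29 at E9.5 and -1.64 in d4c5, while the 9 others lie between -0.94 and 0.59.

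Of the 2 inhibitors, Mdm2 had close replicates in d4c3 and in the embryo and wide ones later in culture. It measured 153 and 147 RPM in d4c3, 242 and 187 RPM in d4c5, and 290 and 192 RPM in d4c7. The embryonic values were 81.3 and 79.1 RPM at E9.5, 150.7 and 151 RPM in E12.5 males and 131 and 123 RPM in E12.5 females. Mdm2 was thus lowest at E9.5, and the d4c3 and E12.5 M groups, neighbours in the order of means, overlapped. Mdm4 measured 178 and 185 RPM in d4c3, 192 and 246 RPM in d4c5, 193 and 244 RPM in d4c7, then 81.6 and 70.8 RPM at E9.5, 105 and 118 RPM in E12.5 males, and 100.0 and 129 RPM in E12.5 females. Its 6 culture libraries all lay above its 6 embryonic libraries, and the d4c5 and d4c7 values coincided within their spread, as did those of the sexes.

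Cdkn1a (p21) was ordered differently from the rest of the genes. Its values were 10.2 and 20.4 RPM in d4c3, 16.4 and 21.2 RPM in d4c5, and 21.2 and 21 RPM in d4c7. At E9.5 they were 6.62 and 7.55 RPM, in E12.5 males 35.0 and 31.6 RPM and in E12.5 females 45.2 and 37.5 RPM. Every E12.5 library lay above every culture library, and every culture library above both E9.5 libraries. Neighbouring culture groups overlapped, with both d4c7 libraries inside the range of d4c5. Ccng1, which encodes cyclin G1, a p53 target known to act on Mdm2 through a phosphatase, had the opposite order of culture and E12.5. It stood at 129 and 154 RPM in d4c3, 191 and 195 RPM in d4c5, 238 and 167 RPM in d4c7, then 27.2 and 25.7 RPM at E9.5, 70.0 and 68.0 RPM in E12.5 males, and 70.3 and 68.6 RPM in E12.5 females. The lowest Ccng1 value in culture was 1.84 times the highest in the embryo, and the values of the 2 sexes overlapped.

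Trp53inp1 encodes a nuclear and autophagy-linked protein that promotes p53 activity, and its replicates were the closest of the set in d4c7. It measured 134 and 141 RPM in d4c3, 217 and 194 RPM in d4c5, 237 and 237 RPM in d4c7, then 32.0 and 34.7 RPM at E9.5, 111 and 115 RPM in E12.5 males, and 114 and 109 RPM in E12.5 females. Its 3 culture groups did not overlap and ascended with culture day, and E9.5 lay far below the sexes, which overlapped. Phlda3 encodes a pleckstrin homology protein that inhibits Akt signalling. It measured 18.8 and 25.7 RPM in d4c3, 36.6 and 29.8 RPM in d4c5, 49.5 and 47.7 RPM in d4c7, then 3.31 and 4.25 RPM at E9.5, 7.81 and 9.03 RPM in E12.5 males, and 5.76 and 6.03 RPM in E12.5 females. Its 6 groups did not overlap at all, in the descending order d4c7, d4c5, d4c3, E12.5 M, E12.5 F, E9.5.

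The remaining 3 targets differed little among the embryonic groups. Sesn1 encodes sestrin 1, which restrains mTORC1 signalling under stress, and measured 19.9 and 25.3 RPM in d4c3, 39.7 and 30.3 RPM in d4c5, and 38.9 and 32.4 RPM in d4c7, against 9.33 to 15.1 RPM over the 6 embryonic libraries. Zmat3 encodes a zinc finger RNA-binding protein that acts in splicing, and measured 41.5 and 38.6 RPM in d4c3, 40.1 and 56.0 RPM in d4c5, and 54.2 and 59.1 RPM in d4c7, against 19.1 to 26.8 RPM in the embryo. For Sesn1 the 3 embryonic groups overlapped, for Zmat3 both E9.5 libraries lay above both of E12.5 F while E12.5 M overlapped each, and for both genes all culture libraries lay above the embryonic ones. Ei24 encodes an endoplasmic reticulum membrane protein tied to cell death and autophagy, and measured 59.5 and 79.0 RPM in d4c3, 88.4 and 101 RPM in d4c5, 112 and 117 RPM in d4c7, and 53.3 to 63.6 RPM in the embryo. Its d4c3 replicate 1 fell inside the embryonic range, while d4c5 and d4c7 lay above it.

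The first comparison asked how the genes change over expansion culture. From d4c3 to d4c7, 3 of the 10 genes were called higher and 0 lower (adjusted p under 0.05, limma with Benjamini-Hochberg adjustment over all 10856 genes), where 1.67% of genes were called higher and 1.08% lower. Trp53inp1 rose by 0.79 ± 0.11 on the log2(RPM + 1) scale (SE, adjusted p = 0.0029), Phlda3 by 1.11 ± 0.26 (adjusted p = 0.0346) and Ei24 by 0.73 ± 0.16 (adjusted p = 0.0271). Of the 7 that were not called, Mdm2 differed by 0.65 ± 0.17 (adjusted p = 0.0557), Sesn1 by 0.64, Cdkn1a by 0.52, Ccng1 by 0.50, Zmat3 by 0.49, Mdm4 by 0.26 and Trp53 by -0.44 ± 0.73 (adjusted p from 0.122 to 0.819 for these 6). The log2 difference was above 0 for 9 of 10 genes, and its median was 0.58, beside 0.02 over all genes. A fit of the 4 compared libraries alone called 0 of the 3 genes (adjusted p = 0.22 for Trp53inp1, 0.292 for Phlda3 and 0.341 for Ei24), and 0 of all genes. Without d4c3 replicate 1 none of the 3 was called, with log2 differences of 0.75 for Trp53inp1, 0.89 for Phlda3 and 0.53 for Ei24. Phlda3 also lost its call without d4c3 replicate 2 (1.33) and without d4c7 replicate 1 (1.08). Without d4c7 replicate 2, Mdm2 (0.94) and Ccng1 (0.75) were called as well.

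Shorter spans of culture gave no calls among these genes. From d4c3 to d4c5, limma called 0 of 10 (0.0645% of genes were called higher and 0.0184% lower). At an unadjusted p under 0.05 were 6 of the 10, beside 967 of all 10856 genes. The median log2 difference was 0.45, beside 0.01 over all genes. From d4c5 to d4c7 limma called 0 of 10 (0.00921% of genes in each direction), and the median was 0.19. At an unadjusted p under 0.05 were 0 of 10, beside 610 of all genes.

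The second comparison asked how the genes differ between E9.5 and E12.5. In males 7 of 10 genes were called higher and 0 lower, where 20.0% of genes were called higher and 17.6% lower, and in females 6 were called higher and 0 lower, beside 20.4% and 17.1%. Both comparisons share the E9.5 libraries. Trp53inp1 rose by 1.73 ± 0.11 in males and 1.72 ± 0.11 in females (adjusted p = 1.42e-07 and 1.74e-07), and Ccng1 by 1.35 ± 0.16 and 1.36 ± 0.16 (adjusted p = 2.1e-05 and 2.5e-05). Cdkn1a rose by 2.09 ± 0.28 in males (adjusted p = 8.12e-05) and by 2.38 ± 0.28 in females (adjusted p = 3.29e-05). Trp53 rose by 4.43 ± 0.73 (adjusted p = 0.000355) and 3.46 ± 0.73 (adjusted p = 0.0022), where the pooled SE is likely to understate its spread at E9.5. Without E9.5 replicate 1 these Trp53 differences became 6.07 and 5.1, and without E9.5 replicate 2 they became 2.78 and 1.81.

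Both inhibitors were called in both sexes. Mdm2 rose by 0.90 ± 0.17 in males (adjusted p = 0.000844) and 0.66 ± 0.17 in females (adjusted p = 0.00736), and Mdm4 by 0.55 ± 0.16 (adjusted p = 0.0159) and 0.57 ± 0.16 (adjusted p = 0.0128). Phlda3 rose in males by 0.98 ± 0.26 (adjusted p = 0.00829), and in females it differed by 0.54 (adjusted p = 0.116). Sesn1, Zmat3 and Ei24 were not called in either sex, with log2 differences from -0.27 to 0.08. Leaving out E9.5 replicate 2 ended the calls of Mdm4 in both sexes (adjusted p = 0.139 and 0.121) and of Mdm2 in females (0.0588), and leaving out E9.5 replicate 1 ended that of Phlda3 in males (0.0699). Leaving out 1 E12.5 library did so for Mdm4 in each sex (replicate 2, adjusted p = 0.119 and 0.15), for Phlda3 in males (replicate 2, 0.0584) and for Mdm2 in females (replicate 1, 0.0572). The blood markers, at 4044 and 4577 RPM at E9.5 and at most 18.4 RPM at E12.5, moved with this comparison, and their part was not tested.

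Between the sexes at E12.5, limma called 0 of the 10 genes, where 6.68% of genes were called higher in females and 5.27% lower. At an unadjusted p under 0.05 were 0 of 10, beside 2819 of all 10856 genes. Trp53 differed by -0.97 ± 0.73 (females minus males, adjusted p = 0.44), with both female libraries below both male libraries. In a fit of the 4 E12.5 libraries alone, where its replicates were close, the same difference was called (adjusted p = 0.00341). Cdkn1a differed by 0.30, Phlda3 by -0.45 and Mdm2 by -0.25, none of them called.

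The third comparison set culture beside the embryo. In d4c3 against E9.5, 8 of 10 genes were called higher and 0 lower (13.4% and 10.3% of genes), and in d4c7 against E9.5 all 10 were called higher (18.1% higher and 13.8% lower among all genes). The median log2 difference of the 10 genes was 1.09 for d4c3 and 1.52 for d4c7, beside 0.04 over all genes in both. In d4c7, Phlda3 was 3.38 ± 0.26 higher, 10.4-fold on the (RPM + 1) scale (adjusted p = 5.51e-07), Ccng1 was 2.87 ± 0.16 higher, 7.3-fold (adjusted p = 2.31e-08), and Trp53inp1 was 2.80 ± 0.11 higher (adjusted p = 1.43e-09). Cdkn1a was higher by 1.45 ± 0.28 (adjusted p = 0.0014), Mdm2 by 1.55, Mdm4 by 1.50, Sesn1 by 1.37, Zmat3 by 1.16, Ei24 by 0.99 and Trp53 by 3.56 ± 0.73 (adjusted p = 0.00196). All 10 were called in d4c7 without any 1 of the d4c7 or E9.5 libraries.

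Against E9.5 in d4c3, the differences were 2.37 for Ccng1, 2.27 for Phlda3, 2.01 for Trp53inp1, 1.25 for Mdm4, 0.90 for Mdm2 and 4.00 for Trp53, all called. Sesn1 (0.74, adjusted p = 0.0557) and Ei24 (0.26, adjusted p = 0.255) were not called. Cdkn1a (0.94, adjusted p = 0.0278) was not called without E9.5 replicate 1 or 2 (adjusted p = 0.161 and 0.0942) or without d4c3 replicate 2, where the difference was 0.47 (adjusted p = 0.288). Zmat3 (0.67, adjusted p = 0.0311) was not called without any 1 of the 4 libraries compared (adjusted p from 0.0772 to 0.196). Trp53 kept its call without E9.5 replicate 2 at 2.36 in d4c3 and at 1.91 in d4c7.

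**Figure D3:**
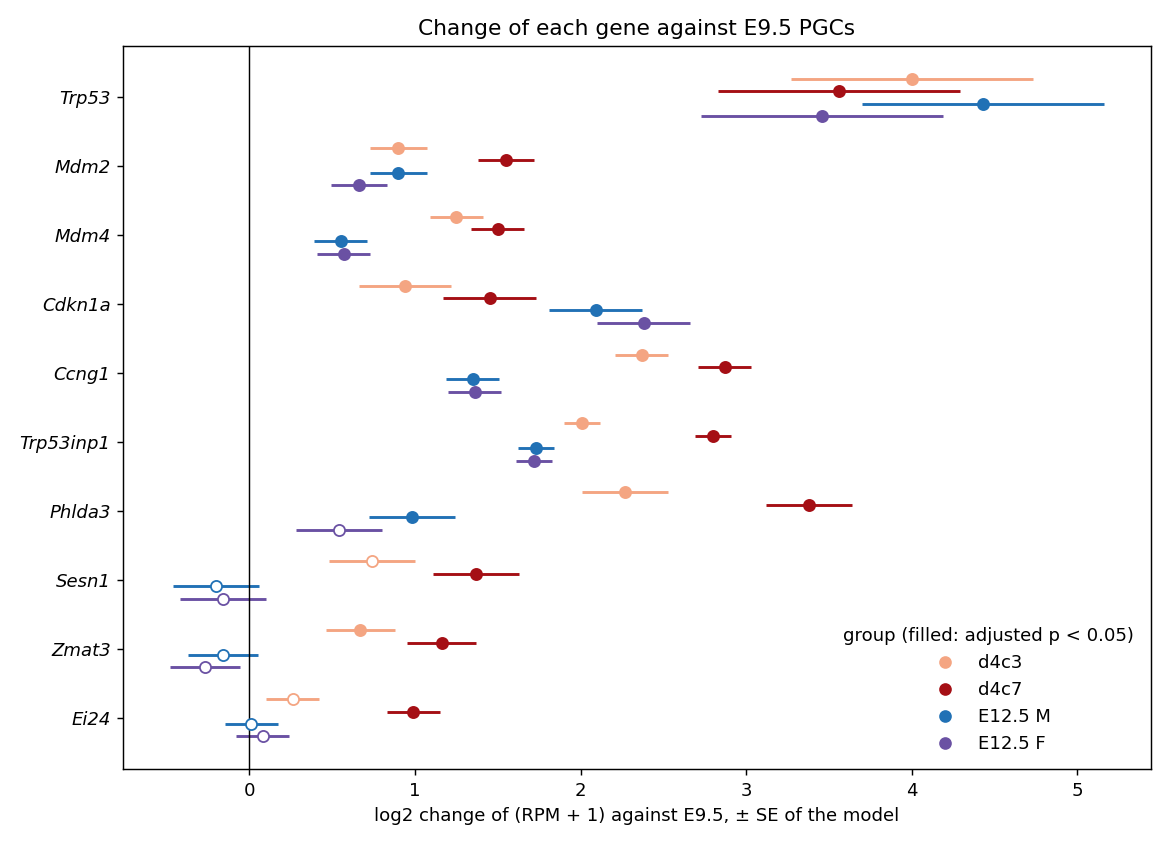
Log2 change of (RPM + 1) against E9.5 (horizontal axis) for each gene (vertical axis) in d4c3, d4c7, E12.5 M and E12.5 F, with bars for ± 1 SE of the model and filled circles for adjusted p under 0.05. All 10 genes are filled for d4c7, and Cdkn1a has larger changes in both E12.5 groups (2.09 and 2.38) than in d4c7 (1.45), unlike Ccng1 (1.35 and 1.36 against 2.87).

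Against the E12.5 germ cells, d4c7 had 8 of 10 genes called higher in each comparison, and Cdkn1a was called lower against females. The 8 were Mdm2, Mdm4, Ccng1, Trp53inp1, Phlda3, Sesn1, Zmat3 and Ei24, where 19.0% of genes were called higher and 17.6% lower against males, and 19.8% and 19.0% against females. Against males the differences ran from 0.64 (Mdm2, adjusted p = 0.00856) to 2.40 (Phlda3, adjusted p = 1.23e-05), and against females from 0.89 (Mdm2, adjusted p = 0.000994) to 2.85 (Phlda3, adjusted p = 3.47e-06). Ccng1 was higher by 1.52 and 1.51, Sesn1 by 1.58 and 1.53, Zmat3 by 1.32 and 1.43, Trp53inp1 by 1.06 and 1.08, Ei24 by 0.98 and 0.92 and Mdm4 by 0.95 and 0.93. Cdkn1a was lower in d4c7 than in females by 0.93 ± 0.28 (log2 difference -0.93, adjusted p = 0.0191), and against males its difference was -0.63 (adjusted p = 0.0967). Trp53 differed by -0.87 (adjusted p = 0.374) and 0.10 (adjusted p = 0.926). Both comparisons share the d4c7 libraries. The call of Mdm2 against males was lost without d4c7 replicate 1 (0.35, adjusted p = 0.0934), and that of Cdkn1a against females without d4c7 replicate 1 (adjusted p = 0.0512) or without E12.5 F replicate 1 (0.125).

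Over all groups, 6 of the 10 genes had all 6 culture libraries above all 6 embryonic libraries: Mdm4, Ccng1, Trp53inp1, Phlda3, Sesn1 and Zmat3. Of all genes tested, 9.25% did. The lowest culture value was 2.08 times the highest embryonic value for Phlda3, 1.84 times for Ccng1, 1.44 for Zmat3, 1.38 for Mdm4, 1.32 for Sesn1 and 1.16 for Trp53inp1. Mdm2 and Ei24 narrowly missed, with 147 against 151 RPM and 59.5 against 63.6 RPM, so that leaving out d4c3 replicate 2 brought in Mdm2 and leaving out d4c3 replicate 1 brought in Ei24. Trp53 and Cdkn1a did not separate culture from embryo in either direction.

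Whether a gene changed by a different amount over culture (d4c7 minus d4c3) than between the embryonic stages (mean of both E12.5 groups minus E9.5) was tested as an interaction, and the 2 spans differ in length. Of the 10 genes, 4 were called with the smaller change in culture and 1 with the larger, where 8.80% and 8.73% of genes were called in those directions. For Cdkn1a the change was 0.52 in culture and 2.24 in the embryo, an interaction of -1.72 ± 0.38 (adjusted p = 0.00687). Trp53inp1 changed by 0.79 and 1.72 (-0.94 ± 0.15, adjusted p = 0.00112) and Ccng1 by 0.50 and 1.36 (-0.86 ± 0.21, adjusted p = 0.0117). For Trp53 the values were -0.44 and 3.94 (-4.38 ± 0.96, adjusted p = 0.0071), and the interaction was -2.74 without E9.5 replicate 2. Ei24 went the other way, with 0.73 in culture and 0.04 in the embryo (0.69 ± 0.21, adjusted p = 0.0373).

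Mdm2, with 0.65 in culture and 0.78 in the embryo, Mdm4, with 0.26 and 0.56, Phlda3, with 1.11 and 0.76, Sesn1, with 0.64 and -0.18, and Zmat3, with 0.49 and -0.22, had interactions that were not called (adjusted p from 0.0913 to 0.725). The call of Ei24 was lost without any 1 of 6 libraries (adjusted p from 0.0535 to 0.166), and that of Ccng1 without d4c3 replicate 2 (0.0609) or E9.5 replicate 2 (0.0617).

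**Figure D4:**
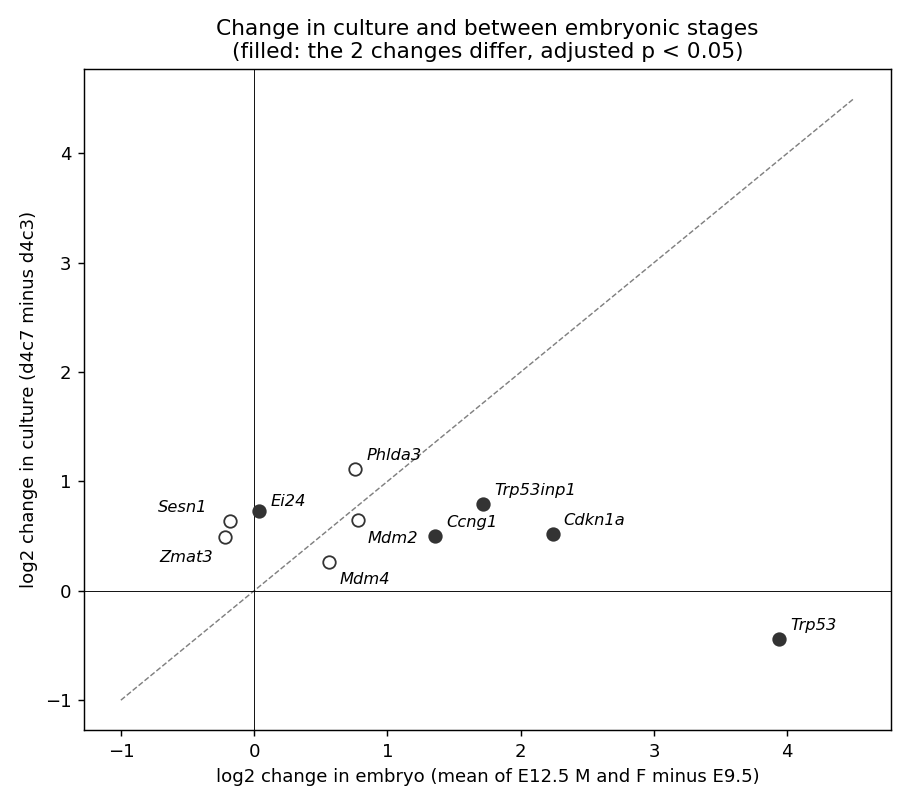
Log2 change of (RPM + 1) from d4c3 to d4c7 (vertical axis) against the log2 change from E9.5 to the mean of both E12.5 groups (horizontal axis), 1 circle per gene, filled where the interaction was called, with a dashed line where both changes are equal. Trp53 (3.94 and -0.44), Cdkn1a (2.24 and 0.52), Trp53inp1 and Ccng1 lie below the line, and Ei24 above it.

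Across the 12 libraries, 8 of the genes followed one another closely and Cdkn1a did not. Pearson r of log2(RPM + 1) was 0.65 to 0.957 (median 0.88) over the 28 pairs of genes other than Trp53 and Cdkn1a. Cdkn1a with those 8 ranged from -0.226 to 0.517 (median 0.13), and Trp53 with them from 0.147 to 0.657 (median 0.45). These values are descriptive, since the libraries fall into groups and genes of one library share its depth and amplification. Setting Trp53 and Cdkn1a apart was not planned, so the range over the 28 pairs partly follows from that choice. No range of r over pairs of other genes is given beside it. The tested genes with the pattern most like that of Cdkn1a were Plekhh1 (r = 0.972), Usp32 (0.967) and Tex15 (0.956), over 12 libraries. Tex15, a gene of meiotic germ cells, stood at 12.9 ± 0.502 RPM at E9.5, 32.4 ± 9.73 RPM in d4c7, 42.6 ± 4.07 RPM in E12.5 males and 62.7 ± 6.31 RPM in E12.5 females. Nearest to Mdm2 were Ect2 (0.984), Slc19a2 (0.976) and Phf11 (0.971), and nearest to Trp53inp1 were Slc19a2 (0.977), Btrc (0.977) and Tuft1 (0.976). Ect2, a regulator of cytokinesis, had 101 ± 0.623 RPM at E9.5, compared with 180 ± 33.8 RPM at d4c7.

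Other p53 targets were taken from a list of 30 genes of apoptosis, DNA repair and stress, of which 24 were tested. From d4c3 to d4c7, 3 of the 24 were called higher and 0 lower (1.67% and 1.08% of all genes), with a median log2 difference of 0.41: Pmaip1 (Noxa), a BH3-only protein of apoptosis, rose by 1.74 ± 0.37 (adjusted p = 0.0239), Bbc3 (Puma), of the same class, by 1.43 ± 0.35 (adjusted p = 0.0454) and Apaf1, the core of the apoptosome, by 0.92 ± 0.21 (adjusted p = 0.0331). In d4c5 limma called 0 of 24 against d4c3 and 0 of 24 against d4c7, beside 9 and 2 of all 10856 genes. At an unadjusted p under 0.05 were 5 and 1 of the 24, beside 967 and 610 of all genes. At d4c7 against E9.5, 17 were called higher and 1 lower (18.1% and 13.8% of all genes, list median 1.27). Against E12.5 males the counts were 15 and 1 (19.0% and 17.6%, median 1.09), and against E12.5 females 16 and 1 (19.8% and 19.0%, median 1.05). The largest calls against E9.5 were Pmaip1 (3.64), Ephx1, an epoxide hydrolase (3.35), and Eda2r, a receptor of the TNF family (3.02). At E9.5 Ephx1 stood at 0.368 and 2.12 RPM, the first below that library's floor of 3 reads (1.10 RPM), so the size of its difference is uncertain. In d4c3 against E9.5, 11 were called higher and 1 lower (13.4% and 10.3% of all genes, list median 0.77). Against both sexes Perp (2.72 in the comparison with males and 1.38 with females), Polk (2.09 and 2.34), Pltp (2.06 and 2.01) and Ephx1 (2.04 and 3.15) were called higher, while Pmaip1 was called against females (4.00) and not against males (-0.48, adjusted p = 0.323). In E12.5 females Ephx1 stood at 1.82 and 1.01 RPM, near the floors of 0.909 and 0.754 RPM. The size of its difference there is uncertain too.

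Between the embryonic stages, 7 of the 24 other targets were called higher in males and 2 lower (20.0% and 17.6% of all genes, list median 0.25). For females these counts were 4 and 1 (20.4% and 17.1%, median 0.14). Pmaip1 measured 1.59 and 1.3 RPM at E9.5, 43.8 and 39.4 RPM in E12.5 males, 0.707 and 1.13 RPM in E12.5 females, and 35.1 and 24.6 RPM in d4c7. Pmaip1 was thus high in males and in d4c7, near the floor of 3 reads at E9.5, and at or near it in females. Gadd45a, a growth arrest gene, fell by 2.87 in males (68.2 and 72.4 RPM at E9.5, 10.9 and 6.92 RPM in males) and by 1.14 in females. Sesn2, the paralog of Sesn1, rose by 2.04 in males and 1.20 in females, and Bbc3 by 1.19 and 1.05. Between the sexes 2 were called higher in females and 2 lower (6.68% and 5.27% of all genes), among them Pmaip1 (-4.48), Gadd45a (1.73) and Perp (1.34). In the interaction 1 of 24 was called higher, Gadd45a (1.64), and 0 lower (8.73% and 8.80% of all genes).

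Regulators and relatives of p53 made a list of 22 genes, 18 of them tested. Limma called 0 of 18 in each of the 3 comparisons within culture. Of all 10856 genes it called 9 (d4c3 to d4c5), 298 (d4c3 to d4c7) and 2 (d4c5 to d4c7). In that order, 1, 2 and 1 of the 18 had an unadjusted p under 0.05, beside 967, 1797 and 610 of all genes. In d4c7 against E9.5, 5 were called higher and 0 lower (18.1% and 13.8% of all genes), among them Trp73, a p53 family member (1.50 ± 0.37), Ppm1d, the Wip1 phosphatase that p53 induces (1.20 ± 0.25), and Usp7, a deubiquitinase of Mdm2 and p53 (1.07 ± 0.16). In d4c3 they were 4 and 1 (13.4% and 10.3%), with Trp73 (1.18), Chek2 (0.99) and Usp7 (0.90). Trp73 was near the floor of 3 reads at E9.5, at 1.10 and 1.65 RPM. Between E9.5 and E12.5, 6 rose and 2 fell in each sex (20.0% and 17.6% of all genes in males, 20.4% and 17.1% in females), among them Hipk2, a kinase of p53 (1.41 in males and 1.37 in females), Atr, a DNA damage kinase (1.13 and 1.27), Crebbp (1.08 and 0.83) and Ep300 (-1.06 and -1.08). In d4c7, 4 were called higher and 4 lower against E12.5 males (19.0% and 17.6% of all genes), and 3 and 4 against E12.5 females (19.8% and 19.0%), shares near those over all genes. Named among them by size, Chek2, a checkpoint kinase, was higher by 1.56 and 1.00, Ep300 was higher by 1.11 and 1.13, Atr differed by -0.97 and -1.11, all called, and Trp73 by 1.52 (called) and 0.63 (adjusted p = 0.19). Between the sexes 1 of 18 was called in each direction (6.68% and 5.27% of all genes), Chek1 (0.47) and Trp53bp1 (-0.49), and in the interaction 2 were called lower (8.80%), Crebbp (-1.18) and Atr (-1.05).

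The cell cycle genes that p21 is known to hold down through the DREAM complex had medians near 0 in each comparison. Of 19 tested, limma called 0 in each comparison within culture, beside 9, 298 and 2 of all genes in the order above. In the same order, 2, 2 and 0 of the 19 had an unadjusted p under 0.05, beside 967, 1797 and 610 of all genes. Against E9.5, 3 were called higher and 0 lower in d4c7 (18.1% and 13.8% of all genes), Ect2 (0.81), Cdk1 (0.70) and Mki67 (0.35), and 2 and 0 in d4c3 (13.4% and 10.3%), Cdk1 (0.67) and Ect2 (0.56). Against E12.5 males, 2 were called higher and 3 lower in d4c7 (19.0% and 17.6% of all genes), and against females 7 and 1 (19.8% and 19.0%). Mki67 was called against both (0.36 and 0.69), Kif23 (0.84), Plk1 (-0.42) and Cenpf (-0.37) were called against males, and Aurkb (0.96) and Cdk1 (0.53) against females. From E9.5 to E12.5 males, 5 were called higher and 2 lower (20.0% and 17.6% of all genes), and to females 2 and 4 (20.4% and 17.1%). Ect2 was called in both (0.47 and 0.36), Plk1 (0.62) and Kif23 (-0.59) in males, and Aurkb (-0.92), Ccnb2 (0.50) and Aurka (-0.42) in females, and these calls alone do not show that the sexes differ. The sexes differed in 1 gene each way (6.68% and 5.27% of all genes), Kif23 (0.70) and Aurkb (-0.66). In the interaction limma called 0, beside 8.73% of all genes higher and 8.80% lower. At an unadjusted p under 0.05 were 7 of the 19, beside 3518 of all 10856 genes, a share near that over all genes. The list's median was between -0.14 and 0.09 in all 11 comparisons. Among 10 housekeeping references, 0 were called within culture and up to 4 elsewhere, with medians from -0.17 to 0.11. The 4 were reached in E12.5 F against E9.5 (20.4% of all genes higher and 17.1% lower). They were also reached in d4c7 against E12.5 males (19.0% and 17.6%) and females (19.8% and 19.0%). In these comparisons the references were called about as often as all genes.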

How the data were processed

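Values are RPM as deposited: the authors scaled each library's reads to a fixed total over genes, which the gene rows of every column sum to within a small margin, for 12 libraries of 3′-end RNA sequencing on a SOLiD instrument, 2 per group, with groups taken from the labels. Per the submitters' processing notes, cutadapt 1.3, TopHat 1.4.1, Cufflinks 2.2.0 and build mm10 were used, and the step each served is not given in the sources used here. The 10 genes and the other lists were chosen with earlier results of these data known.

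The smallest step between low values of a library was taken as 1 read. Between 81.6% and 87.3% of values up to 20 reads were whole within 0.1 read, so whole reads were not recovered and no count test was run. A value of 0 allows up to 3 reads, 0.517 to 1.36 RPM by library. Such limits hold for counting error alone: cDNA was amplified and no molecular identifiers are mentioned.

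Genes with at least 5 RPM in at least 2 libraries were kept, and log2(RPM + 1) was fitted with limma 3.58.1 in R 4.3.3 (a mean per group, all 12 libraries, eBayes with trend). Each comparison was adjusted by Benjamini-Hochberg over 10856 genes and called under 0.05. A log2 difference on this scale understates the change of low genes. The test was tried on simulated data. All 10 genes are named in each comparison, and of other lists up to 3 called genes with the largest difference, though some that this rule names are not reported here, and a gene it names in a comparison with 1 sex may also be given for the other, a choice made after seeing the values. For Cdkn1a, Mdm2 and Trp53inp1, 3 genes of highest Pearson r are named. Levels are also printed for Pmaip1, Gadd45a, Ephx1, Trp73, Dppa3, Tex15 and Ect2, chosen after their values were seen. Alternatives were pseudocounts of 0.5 and 5, no filter, median centring, a replicate block, no trend, only the libraries compared, and leaving out each library in turn. The libraries left out of the count of genes whose culture and embryonic values do not overlap were added after seeing the data. Positions and promoter sequences are from RefSeq (GRCm38.p6), and strand, overlapping genes and pseudogenes from GENCODE on the same build, read with Python 3.11.15 and pandas 2.3.3.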

Additional observations from a re-analysis of the deposited data

Results flagged for a closer look

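For 5 of the 10 genes the change over culture (d4c7 minus d4c3) differed from the change between the embryonic stages (mean of both E12.5 groups minus E9.5) by the interaction test. The interaction was -4.38 ± 0.96 for Trp53, -1.72 ± 0.38 for Cdkn1a, -0.94 ± 0.15 for Trp53inp1, -0.86 ± 0.21 for Ccng1 and 0.69 ± 0.21 for Ei24, on the log2(RPM + 1) scale (SE). For Trp53 this SE pools the spread over groups and is likely to understate that at E9.5, where its libraries lay furthest apart. Blood markers summed to 4044 and 4577 RPM at E9.5 and to no more than 18.4 RPM in any other library, and their part was not tested.

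Spike-in (ERCC) rows, which no comparison used, carried signal that differed between groups. Their sum reached 16494 RPM in E12.5 M replicate 2 and was 12107 RPM or more in every E12.5 library, 1372 and 628 RPM in the E9.5 libraries, and 59.6 to 72.7 RPM in 5 culture libraries, with no value in d4c7 replicate 2.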

How the results depend on the processing

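Of 110 results (10 genes in 11 comparisons), 56 were called, 42 of them under every alternative run, and 14 lost the call under at least 1. Of the 54 not called, 4 gained a call under at least 1, and 0 changed sign while called. Pseudocounts and median centring changed 0 of these calls. The number of the 10 genes called from d4c3 to d4c7 went from 3 to 1 without the filter and to 0 with only the compared libraries, and leaving out 1 library gave 0 (without d4c3 replicate 1) to 5 (without d4c7 replicate 2). In E12.5 F against M it went from 0 to 1 with only the compared libraries. In the interaction it went from 5 to 3 without the filter, and leaving out 1 library gave 3 (without E9.5 replicate 2) to 5. Leaving out 1 library gave 5 to 7 in E12.5 M and 4 to 6 in E12.5 F against E9.5, 6 to 7 in d4c3 and 10 in d4c7 against E9.5, 7 to 8 in d4c7 against E12.5 M and 8 to 9 against E12.5 F, and 6 to 7 for culture above embryo without overlap. Without the trend, Ei24 was not called from d4c3 to d4c7 (adjusted p = 0.0812) or in the interaction (0.0813), nor Mdm4 between E9.5 and E12.5 (0.0589 in males, 0.0512 in females). Without the filter, Phlda3 (0.0752) and Ei24 (0.0869) from d4c3 to d4c7, Cdkn1a in d4c3 against E9.5 (0.0589), and Trp53 (0.0556) and Ei24 (0.0632) in the interaction were not called. With only the compared libraries, Cdkn1a in d4c3 against E9.5 (0.0554) and Mdm2 in d4c7 against E12.5 M (0.0641) were not called, and Sesn1 in d4c3 against E9.5 was (0.0415). The cause was not tested.

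The replicate block (replicate number as a term) gave 4 genes called from d4c3 to d4c7, adding Mdm2 (adjusted p = 0.0249), and 9 in d4c3 against E9.5, adding Sesn1 (0.0404), and it changed no other call. Deviations of same-numbered libraries correlated at 0.12 (d4c3 and d4c5), 0.13 (d4c3 and d4c7) and 0.46 (d4c5 and d4c7), and at -0.04 to 0.03 in other pairs of groups. The labels give the numbers no meaning, and with 2 libraries per group this is a hint of shared structure within culture that does not establish pairing. Whether the d4c5 and d4c7 libraries are independent was not tested.

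Over all genes, the calls from d4c3 to d4c5 went from 9 to 3 without the filter, 20 with median centring, 22 with the replicate block, 6 without the trend and 0 with only the compared libraries. From d4c3 to d4c7 they went from 298 to 103, 313, 358, 184 and 0 in the same order. From d4c5 to d4c7 they went from 2 to 0 without the filter and with only the compared libraries, 3 with a pseudocount of 5 and 1 without the trend. With only the compared libraries they went from 3968 to 2297 in d4c7 against E12.5 M and from 4221 to 2456 against E12.5 F. Against E9.5 that setting lowered them from 3463 to 2546 in d4c7. It raised them from 4089 to 5338 in E12.5 M, from 4069 to 5275 in E12.5 F and from 2574 to 3372 in d4c3. Leaving out 1 library gave 2 to 26 from d4c3 to d4c5, 31 (without d4c3 replicate 1) to 786 (without d4c7 replicate 2) from d4c3 to d4c7, 0 to 30 from d4c5 to d4c7, 538 to 567 (against 1297) between the sexes, 1321 to 1685 (against 2574) in d4c3 against E9.5 and 908 to 2447 (against 1903) in the interaction. In E12.5 M, E12.5 F and d4c7 against E9.5 the lowest counts were 2509, 2456 and 2069 (against 4089, 4069 and 3463), without 1 of the E9.5 libraries. In d4c7 against E12.5 M and F they were 2552 and 2807, without 1 of the E12.5 libraries. Testing without the filter moved the split of higher and lower calls in d4c3 against E9.5 from 1456 and 1118 to 1279 and 1640, and in the interaction from 948 and 955 to 1180 and 723. The fewest reads behind a value, about 9 for Phlda3 and 15 for Trp53 at E9.5, limit those genes most.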
